A study of Mus musculus with 6 samples.

Results

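The potassium channel family of the mouse was measured in gastrointestinal stromal tumours given imatinib or vehicle. Members were the rows of the deposited gene-level table whose name starts with KCN, ignoring case, or is ABCC8 or ABCC9, with Kcnmb1 left out. Of 31492 rows, 85 carried such a name. A row was kept if 1 of its probes had a detection p under 0.05 against the negative controls on at least 3 of 6 arrays, which left 30 genes out of 14713 genes tested. The rule used names and detection only, not the difference between the groups.

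The tumours came from mice of the C57Bl/6 strain, aged 6 weeks, with the genotype written Kit V558Δ/+ in the labels, a germline activating change of the receptor tyrosine kinase KIT that all samples share. These tumours grow in the gut wall and resemble interstitial cells of Cajal, which pace the muscle of the gut. Imatinib, which blocks the kinases KIT and ABL and the PDGF receptors, or vehicle was injected into the peritoneum, and the labels give neither dose nor duration. Total RNA of 3 vehicle and 3 imatinib samples was measured on Illumina beadchips, with 1 array for each. Whether the samples of a group came from different mice is not given in the labels, so a p-value here reflects only the spread among these samples, which may be technical.

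Potassium channels let potassium ions leave the cell, which holds the membrane near rest and ends each electrical wave. Inward rectifiers and tandem-pore (K2P) channels set the resting potential, voltage-gated channels repolarise the membrane after depolarisation, and calcium-activated channels couple a rise of calcium to repolarisation. Accessory subunits change the gating or the traffic of the pore subunits. In the gut these channels shape the slow waves of interstitial cells of Cajal, the contraction of muscle and the secretion of epithelium, and they also serve lymphocytes, neurons and the cells around blood vessels.

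Of the 30 genes, Kcna6 and Abcc9 rose with imatinib and none fell at the threshold of 0.05 (limma, with p-values adjusted by Benjamini-Hochberg over all 14713 genes). Kcna6, a voltage-gated pore subunit of the Shaker group, rose 3.03-fold, and Abcc9, the sulfonylurea receptor subunit of the ATP-sensitive channel of vessel and muscle, rose 2.27-fold. Kcnj8, the pore subunit that assembles with Abcc9, was 2.16-fold higher and did not pass (adjusted p = 0.0556). Over all genes tested, 1.58% passed, 0.523% as higher and 1.05% as lower, beside 6.67% of the members. An unadjusted limma p under 0.05 was found for 16 members, or 53.3%, beside 26.4% of all genes. That count of members was 12 in the gene-level table and 8 in the authors' processed values. The 3 imatinib arrays lay above the 3 vehicle arrays for 11 members and below them for 3, a total of 14 of 30, or 46.7%. Over all genes 31.9% did not overlap, 17.4% with imatinib higher and 14.5% with imatinib lower. The median log2 change of the members was 0.27, beside 0.04 over all genes. The member median was 0.16 without background correction, 0.17 in the gene-level table and 0.12 in the authors' processed values. Of the 30 members, 21 had a higher mean with imatinib (70%, against 54.3% of all genes). These shares are descriptions of the members that passed the detection filter, and 3 of them, Kcna5, Kcnc4 and Kcnj2, passed it through the imatinib arrays alone.

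The promoters of Abcc9, Kcnj8 and Kcna6 are shown because these are the members that passed the test and the channel partner of one of them. Each is a window of 300 bases around a RefSeq gene start, most of it upstream (assembly GRCm38.p6, the build of the sequence table, since the array files name none), 5′ to 3′ on the minus strand, and capitals mark the matches to the motifs searched. They lie at chr6:142702225-142702524 for Abcc9, chr6:142571565-142571864 for Kcnj8 and chr6:126740625-126740924 for Kcna6.
Abcc9: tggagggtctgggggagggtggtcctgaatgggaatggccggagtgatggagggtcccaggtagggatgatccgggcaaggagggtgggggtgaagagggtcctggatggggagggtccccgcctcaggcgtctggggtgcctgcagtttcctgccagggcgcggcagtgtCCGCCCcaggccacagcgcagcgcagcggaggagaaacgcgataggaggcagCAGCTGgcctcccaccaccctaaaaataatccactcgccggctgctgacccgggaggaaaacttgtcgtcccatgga
Kcnj8: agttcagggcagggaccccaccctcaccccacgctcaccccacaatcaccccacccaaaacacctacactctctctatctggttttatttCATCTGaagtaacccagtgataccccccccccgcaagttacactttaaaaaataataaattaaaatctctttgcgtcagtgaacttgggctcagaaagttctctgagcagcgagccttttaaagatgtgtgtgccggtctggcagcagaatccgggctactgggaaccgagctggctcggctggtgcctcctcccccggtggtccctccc
Kcna6: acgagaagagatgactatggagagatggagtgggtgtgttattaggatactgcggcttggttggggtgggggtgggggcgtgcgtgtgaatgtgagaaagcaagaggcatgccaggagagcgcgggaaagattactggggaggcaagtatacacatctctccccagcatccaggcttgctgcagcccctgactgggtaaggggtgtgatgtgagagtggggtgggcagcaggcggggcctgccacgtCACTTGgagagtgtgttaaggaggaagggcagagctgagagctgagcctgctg

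The motifs searched on both strands were the GC box GGGCGG, the E-box CANNTG, the TATA box TATAAA, the AP-1 site TGANTCA and the CArG box bound by serum response factor. No match of one motif overlapped a match of another in these 3 windows. Each of the 3 held 1 E-box, which 72.3% of the 32851 promoters in the table also hold. Abcc9 held 1 GC box, present in 35.7% of all promoters, and Kcnj8 and Kcna6 held none. None of the 3 held the TATAAA letters (13.6% of all promoters), the AP-1 letters (7.81%) or a CArG box (1.63%). The share of G and C was 65.7% for Abcc9, 53.3% for Kcnj8 and 58.3% for Kcna6, with a median of 52.7% over all promoters.

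Kcnj8 and Abcc9 are direct neighbours on chromosome 6 in the RefSeq table, with no protein-coding gene between them. Kcna5, Kcna1 and Kcna6 form another run of neighbours on the same chromosome. Of the 11 pairs of neighbouring channel genes among the 85 rows, Kcnj8 with Abcc9 was the pair in which both genes were kept. The other ATP-sensitive pair, Kcnj11 and Abcc8, best known from pancreatic beta cells and neurons, also lies side by side, on chromosome 7. Kcnj11 was detected on 1 array and Abcc8 on none, so neither was tested. In the Kcna run, Kcna5 and Kcna6 were kept and Kcna1, between them, was detected on no array.

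**Figure D1:**
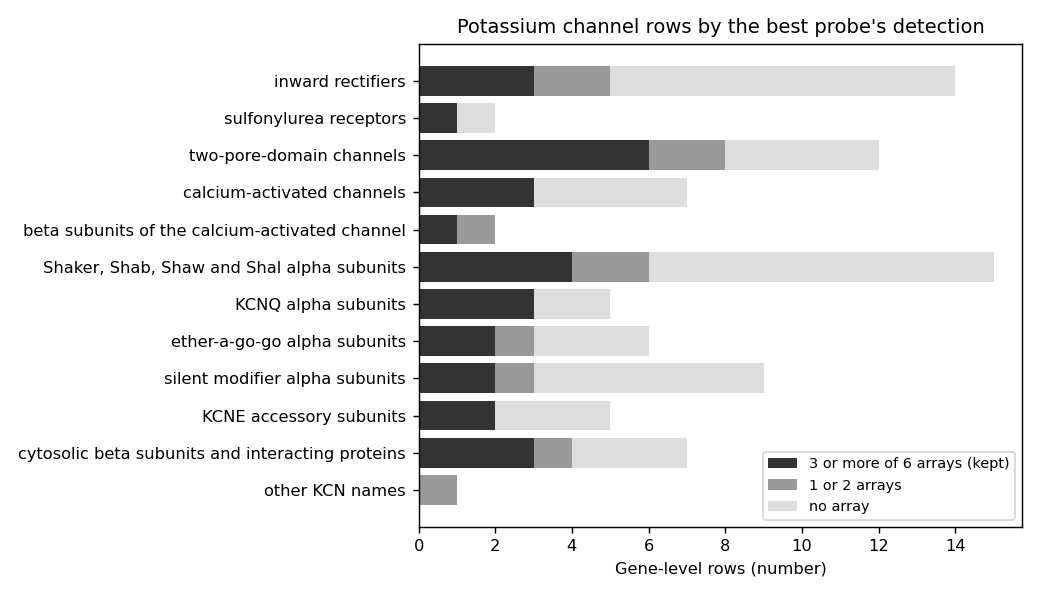
Number of gene-level rows with a potassium channel name in each class (horizontal axis), split by how many of the 6 arrays detected the best probe of the row at a detection p under 0.05. Of 85 rows, 30 were kept, 11 were detected on 1 or 2 arrays and 44 on none.

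Of the 85 rows, 55 were not kept, 44 of them detected on no array and 11 on 1 or 2. Tandem-pore channels were kept in 6 of 12 rows and KCNQ subunits, which carry slow voltage-gated currents, in 3 of 5. Inward rectifiers were kept in 3 of 14 and Shaker, Shab, Shaw and Shal subunits in 4 of 15. The calcium-activated channels were kept in 3 of 7 rows, ether-a-go-go subunits in 2 of 6, silent modifier subunits in 2 of 9, KCNE subunits in 2 of 5, the cytosolic Kcnab and Kcnip proteins in 3 of 7, and beta subunits of the large-conductance channel in 1 of 2. Kcnn2 and Kcnn3, small-conductance calcium-activated channels, were detected on no array, and Kcna3, the channel of T cells, on 1 imatinib array. The plot of rows by class shows these counts. A row below detection says that its probes did not exceed the negative controls, not that the gene was off.

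The 6 arrays detected between 20684 and 21439 probes, 45.7% to 47.3% of them all. A probe was read on 43 beads at the median, and the number of arrays limits the precision. The vehicle arrays detected fewer probes (up to 20923) than the imatinib arrays (from 21268). On the first principal component the vehicle arrays were spread over -60.5, 0.983 and -30.7 for vehicle 1, 2 and 3, with vehicle 2 nearest to the imatinib arrays at 10.1 to 47.3. The label of the tissue was checked with 8 markers of interstitial cells of Cajal and stromal tumour, of which 6 were tested. Kit and Etv1, which define these tumours and are named for that and not for their change, had log2 signals of 13.5 to 14.5 and 12.7 to 13.5. Bright signals were not limited to this list, since Lgals4 of the intestinal epithelium list had 12.6 to 14.8 over the 6 arrays. The list as a whole had 0 of 6 calls (limma, 2 with an unadjusted p under 0.05), with a median log2 change of -0.43. Of the 6, 5 had a lower mean with imatinib, and 2 lay lower without overlap, as did 14.5% of all genes. For this list and those below, 26.4% of all genes tested had an unadjusted limma p under 0.05.

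Among the subunits of ATP-sensitive channels, which open when cellular ATP falls, Abcc9 had log2 signals of 6.42, 6.95 and 6.87 on vehicle 1, 2 and 3 and of 7.74, 8.01 and 8.04 on imatinib 1, 2 and 3. All imatinib arrays lay above all vehicle arrays, with vehicle 1 lowest. The mean went from 6.75 ± 0.29 to 7.93 ± 0.16 (SD, n = 3 arrays). The change on the log2 scale was 1.18 ± 0.18 (SE, limma adjusted p = 0.0441). Before normalization the mean bead signals of this probe were 111, 150 and 147 with vehicle and 229, 306 and 261 with imatinib, with bead standard errors of 4.86 to 11.4. The raw signals of the groups also did not overlap. A second kept probe of Abcc9 changed by 1.23, and its other 2 probes were detected on no array. The gene-level value, which averages all 4, changed by 0.81 after quantile normalization and by 0.57 in the authors' processed values (adjusted p = 0.0398 and 0.0457).

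Kcnj8 had log2 signals of 5.76, 6.13 and 5.94 with vehicle and of 6.89, 6.79 and 7.48 with imatinib. Its groups did not overlap, and imatinib 3 was highest. The log2 change was 1.11 ± 0.21 (SE, 95% interval 0.60 to 1.62, limma adjusted p = 0.0556), so it did not pass. It was measured by 1 probe, with raw signals of 80.4, 95.8 and 89.9 with vehicle and 138, 147 and 186 with imatinib.

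Kcnj8 and Abcc9 are also known as markers of pericytes and of vascular smooth muscle. In this bulk tissue, more cells of a type and more RNA per cell cannot be told apart. Of 8 other pericyte markers 7 were tested and none passed (limma, 4 with an unadjusted p under 0.05). Their summed level, as the mean log2 value relative to the 6-array mean, was -0.24 to 0.02 on vehicle arrays and 0.06 to 0.17 on imatinib arrays, so the groups did not overlap. The members of that list did not move one way. Notch3 changed by 0.96 ± 0.22 (SE, adjusted p = 0.0731), without overlap, and is named after its values were seen. Higd1b, detected on 1 vehicle array, and Vtn had differences of 0.91 ± 0.17 and 0.77 ± 0.17 (SE, adjusted p = 0.0556 and 0.0714), with log2 signals of 4.88 to 5.24 against 5.65 to 6.14 and 5.11 to 5.66 against 6.12 to 6.33. Rgs5, Pdgfrb and Anpep had lower means with imatinib, by -0.49, -0.06 and -0.60. Smooth muscle markers overlapped between groups, at -1.01 to 0.40 with vehicle and -0.02 to 0.60 with imatinib, and 0 of 8 passed (limma, 0 with an unadjusted p under 0.05). Endothelial markers did not overlap, at -0.51 to -0.28 and 0.30 to 0.59, and 1 of 6, Cldn5, rose by 1.99 ± 0.28 (SE, adjusted p = 0.0418). With Cldn5 included, 5 of the 6 had an unadjusted p under 0.05 (limma). The part of these cell types in the change of Kcnj8 and Abcc9 was not tested.

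**Figure D2:**
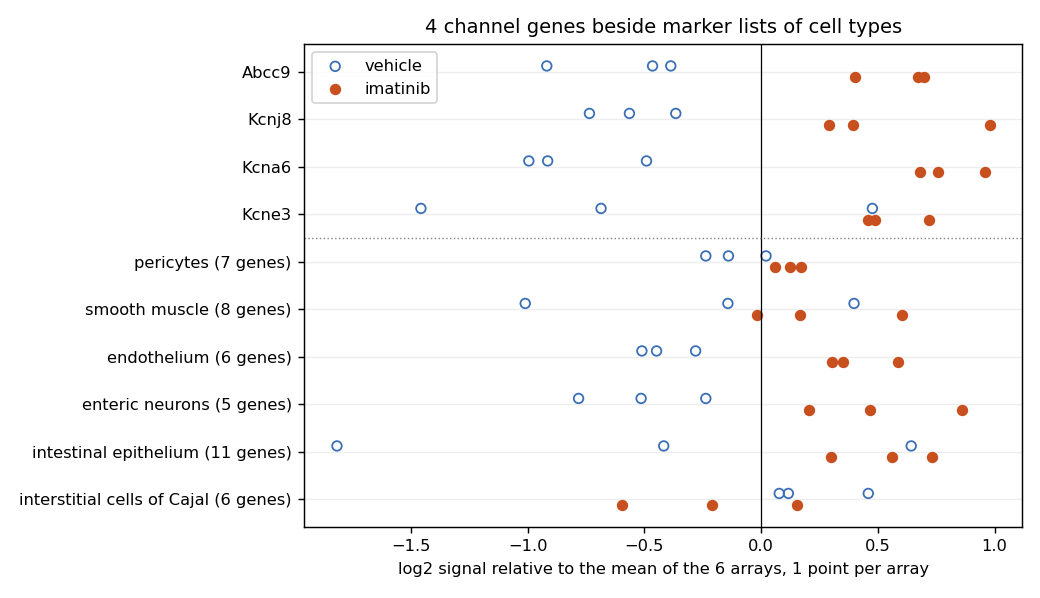
Log2 signal relative to the mean of the 6 arrays (horizontal axis) for 4 channel genes and for the mean of the tested genes of 6 marker lists, 1 point per array, vehicle open and imatinib filled. Abcc9, Kcnj8 and Kcna6 separate the groups. Vehicle 2 lies among the imatinib arrays for Kcne3 and for the intestinal epithelium, smooth muscle and Cajal cell lists, and vehicle 3 does so for the Cajal cell list.

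The remaining kept inward rectifiers were dim. Kcnj2, which sets the resting potential of muscle and heart cells, was not above background on any vehicle array and was above it on all 3 imatinib arrays. Its log2 signals were 4.81, 4.91 and 5.09 with vehicle and 5.21, 5.25 and 5.17 with imatinib (limma adjusted p = 0.199). The imatinib mean was at least 1.06-fold higher. For this bound, each vehicle array was given the larger of the probe's signal and that array's lowest signal above background. Such bounds, here and below, compare means only and leave out the spread among arrays. The 95% interval of the fitted log2 difference of Kcnj2, -0.008 to 0.55, included no change. Kcnj4, a strong inward rectifier of brain and heart, went the other way. It was detected on all 3 vehicle arrays and on 1 imatinib array, with 5.38, 5.59 and 5.16 against 4.83, 4.73 and 5.11. The signals of imatinib 1 and 2 were not above background, so the fitted log2 difference of -0.48 ± 0.16 (SE, limma adjusted p = 0.135) rests partly on background. The groups did not overlap, with vehicle 3 just above imatinib 3.

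Among the 4 kept voltage-gated pore subunits of the Shaker, Shab, Shaw and Shal groups, 1 passed. Kcna5 and Kcnc4 were kept through the imatinib arrays alone, so the direction of their means says nothing about the class. Kcna6 had log2 signals of 5.36, 5.86 and 5.44 with vehicle and of 7.31, 7.11 and 7.03 with imatinib. The lowest imatinib array exceeded the highest vehicle array by more than 1 log2 unit. The change was 1.60 ± 0.17 (SE, adjusted p = 0.0339, limma), from 5.55 ± 0.27 to 7.15 ± 0.14 (SD, n = 3 arrays). Its raw signals were 67.2, 83.4 and 71.2 with vehicle and 175, 176 and 143 with imatinib, with bead standard errors of 3.19 to 8.32. A second kept probe changed by 1.26, and 2 further probes of the row were detected on no array. The deposited gene-level value averages all 4, and there the change was 0.67 after quantile normalization and 0.40 in the authors' processed values, on the same side of the threshold in both (adjusted p = 0.0353 and 0.0464).

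Kcna6 is best known from neurons. Of 12 enteric neuron markers 5 were tested, and they lay at -0.78 to -0.24 on vehicle arrays and 0.21 to 0.86 on imatinib arrays. All 5 had an unadjusted p under 0.05 (limma). Nos1, which makes nitric oxide in inhibitory motor neurons, rose by 1.02 ± 0.13 (SE, limma adjusted p = 0.0401), and the other 4 had higher means without passing. Of 6 glial markers Sox10 alone was tested, and it rose by 1.39 ± 0.18 (SE, adjusted p = 0.0411), while the other 5 were not tested. Of 5 B cell markers 4 were tested, at -1.09 to -0.32 and 0.44 to 0.99, and all 4 had an unadjusted p under 0.05 (limma). Cd79a, detected on 2 vehicle and 3 imatinib arrays, had a fitted rise of 1.65 ± 0.23 (SE, adjusted p = 0.0418). Other immune lists went the opposite way. T cell markers lay at 0.15 to 0.32 with vehicle and -0.52 to -0.05 with imatinib, and macrophage markers at 0.13 to 0.26 and -0.43 to 0.02. None of the 7 and 8 tested genes of these 2 lists passed, and 4 of each had an unadjusted p under 0.05 (limma). The part of these cell types in the change of Kcna6 was not tested.

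Kcna5, a delayed rectifier of vascular muscle and of the atrium, was above background on no vehicle array and on all 3 imatinib arrays. Its log2 signals were 4.95, 4.93 and 4.56 against 5.45, 5.59 and 5.86, at least 1.43-fold higher (limma adjusted p = 0.0607). Kcnc4, a rapidly inactivating Shaw channel, showed the same detection, with 4.46, 4.98 and 4.59 against 5.29, 5.30 and 5.46, at least 1.17-fold higher (adjusted p = 0.0763). Both passed the detection filter through the imatinib arrays alone, so a difference was built into how they were kept. The cytosolic beta subunit Kcnab1, which binds Shaker channels and speeds their inactivation, had 5.13, 5.89 and 6.57 with vehicle and 6.79, 6.90 and 7.54 with imatinib. These groups did not overlap, but the vehicle arrays spanned over 1 log2 unit, and the log2 change was 1.22 ± 0.39 (SE, adjusted p = 0.123). A second kept probe of Kcnab1 changed by 1.04. The other beta subunits, Kcnab2 and Kcnab3, overlapped, with changes of 0.17 ± 0.14 and -0.07 ± 0.25 (SE, adjusted p = 0.446 and 0.877).

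**Figure D3:**
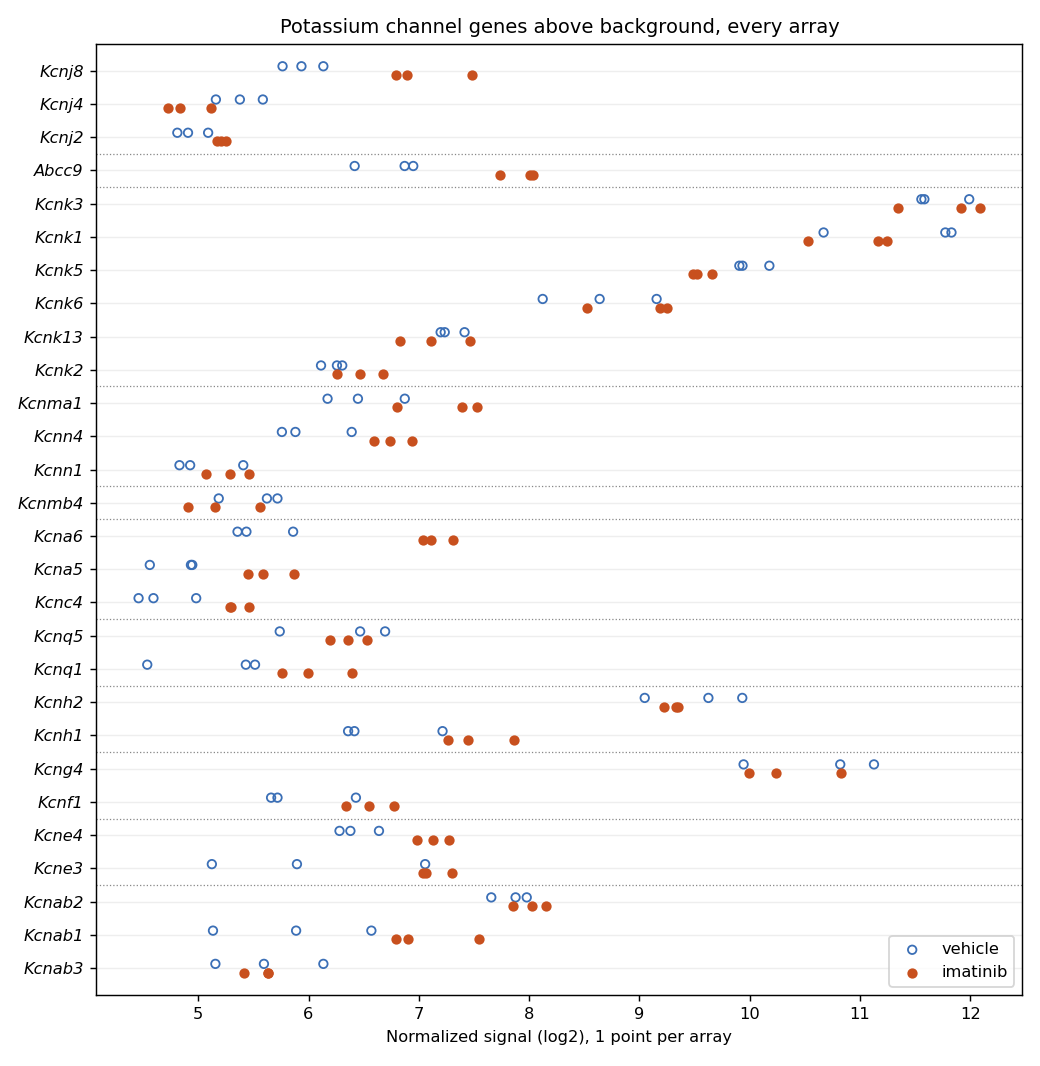
Normalized log2 signal (horizontal axis) of the tested probe of 28 of the 30 genes, 1 point per array, vehicle open and imatinib filled, with dotted lines between classes. Kcna6 has the widest gap between groups, and Kcnk3, Kcnk1, Kcng4 and Kcnh2 overlap. Positions of different genes are not comparable, since each probe has its own brightness.

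The tandem-pore channels gave no call. Kcnk3, an acid-sensitive background channel, had log2 signals of 11.99, 11.58 and 11.56 with vehicle and of 11.91, 12.09 and 11.34 with imatinib. These groups overlapped fully, and the change was 0.07 ± 0.23 (SE, 95% interval -0.48 to 0.63, limma adjusted p = 0.86), with a sign that turned to -0.05 when array medians were made equal. Kcnk5, a background channel activated by alkaline pH, had 9.91, 9.93 and 10.18 with vehicle and 9.48, 9.52 and 9.66 with imatinib. The highest imatinib array was below the lowest vehicle array, and the log2 change was -0.45 ± 0.12 (SE, adjusted p = 0.0949). Its second kept probe changed by -0.38.

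Kcnk1, a weakly rectifying tandem-pore channel, had log2 signals of 11.83, 10.67 and 11.77 with vehicle and of 10.52, 11.16 and 11.25 with imatinib. Vehicle 2 lay with the imatinib arrays, and the change was -0.45 ± 0.36 (SE, limma adjusted p = 0.451). Kcng4, a silent subunit that modifies Shab channels, had 11.13, 9.94 and 10.82 against 9.997, 10.83 and 10.24 (log2 change -0.28 ± 0.35 SE, adjusted p = 0.639). Vehicle 2 and imatinib 1 were the lowest arrays of both genes. Kcnh2, the ether-a-go-go related channel that repolarises heart and gut muscle, had 9.93, 9.05 and 9.62 against 9.33, 9.35 and 9.22, with vehicle 2 lowest (log2 change -0.23 ± 0.23 SE, adjusted p = 0.533). All 3 genes had a second kept probe with a change in the same direction, from -0.62 to -0.28. The other tandem-pore genes, Kcnk2, Kcnk6 and Kcnk13, overlapped between groups, with changes from -0.15 to 0.35.

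The calcium-activated and KCNQ channels gave no call. Kcnn4, the intermediate-conductance channel of lymphocytes, epithelium and endothelium, had log2 signals of 5.76, 6.39 and 5.88 with vehicle and of 6.94, 6.74 and 6.59 with imatinib. Its groups did not overlap, and the log2 change was 0.75 ± 0.20 (SE, limma adjusted p = 0.0881). Kcnn1, a small-conductance channel of neurons, was detected on 1 vehicle array and on 3 imatinib arrays, with 4.83, 4.93 and 5.41 against 5.46, 5.29 and 5.07. These groups overlapped (fitted log2 difference 0.22 ± 0.19 SE, adjusted p = 0.489, partly on signals not above background). Kcnma1, the large-conductance channel of smooth muscle, is described after its values were seen. It had 6.45, 6.87 and 6.17 against 7.53, 6.80 and 7.40, with imatinib 2 below vehicle 2 (log2 change 0.75 ± 0.26 SE, adjusted p = 0.14). Its second kept probe changed by 0.19. Kcnmb4, a beta subunit of that channel best known from brain, was detected on 3 vehicle and 2 imatinib arrays. Its groups overlapped (fitted log2 difference -0.30 ± 0.22 SE, adjusted p = 0.405, partly on a signal not above background).

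Kcnq1, which carries potassium across the basolateral membrane of epithelia together with Kcne3, had log2 signals of 4.54, 5.52 and 5.43 with vehicle and of 6.00, 5.76 and 6.40 with imatinib. Its groups did not overlap. Vehicle 1 lay far below the others and was not above background. The fitted log2 difference of 0.89 ± 0.30 (SE, limma adjusted p = 0.137) thus rests partly on background. It was 0.58 to 1.06 with 1 array left out, and 0.15 in the alternative with the smallest change. Kcne3, described after its values were seen, had 5.12, 7.06 and 5.90 against 7.30, 7.07 and 7.04. Vehicle 2 lay among the imatinib arrays (log2 change 1.11 ± 0.46 SE, adjusted p = 0.188). The intestinal epithelium list of 11 tested markers had the same arrangement, at -1.82, 0.64 and -0.42 on vehicle 1, 2 and 3 and 0.30 to 0.73 on the imatinib arrays. Vehicle 2 also lay among the imatinib arrays for the smooth muscle list, at 0.40 beside -0.02 to 0.60. None of the 11 epithelial markers passed (limma, 1 with an unadjusted p under 0.05), and Krt18 and Cdx2 changed by 1.48 ± 0.57 and 1.22 ± 0.52 (SE, adjusted p = 0.169 and 0.197). The part of epithelium in the values of Kcnq1 and Kcne3 was not tested. Kcnq5 overlapped, with a change of 0.06 ± 0.26 (SE, adjusted p = 0.904).

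Of the remaining accessory and modifier subunits, Kcne4, which dampens Kcnq1 and Shaker channels, had log2 signals of 6.64, 6.28 and 6.38 with vehicle and of 7.27, 6.98 and 7.13 with imatinib. Its groups did not overlap, and the log2 change was 0.69 ± 0.14 (SE, limma adjusted p = 0.0613). It passed in 2 of 20 alternatives, cyclic loess (adjusted p = 0.0405) and array weights, and its adjusted p reached 0.214 with 1 array left out and 0.151 with the replicate block. Kcnh1, an ether-a-go-go channel of brain and of dividing cells, had 7.21, 6.42 and 6.36 against 7.86, 7.44 and 7.26. The highest vehicle array, vehicle 1, lay just below the lowest imatinib array (log2 change 0.86 ± 0.28 SE, adjusted p = 0.124). The silent subunit Kcnf1 overlapped, with a change of 0.62 ± 0.24 (SE, adjusted p = 0.169).

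**Figure D4:**
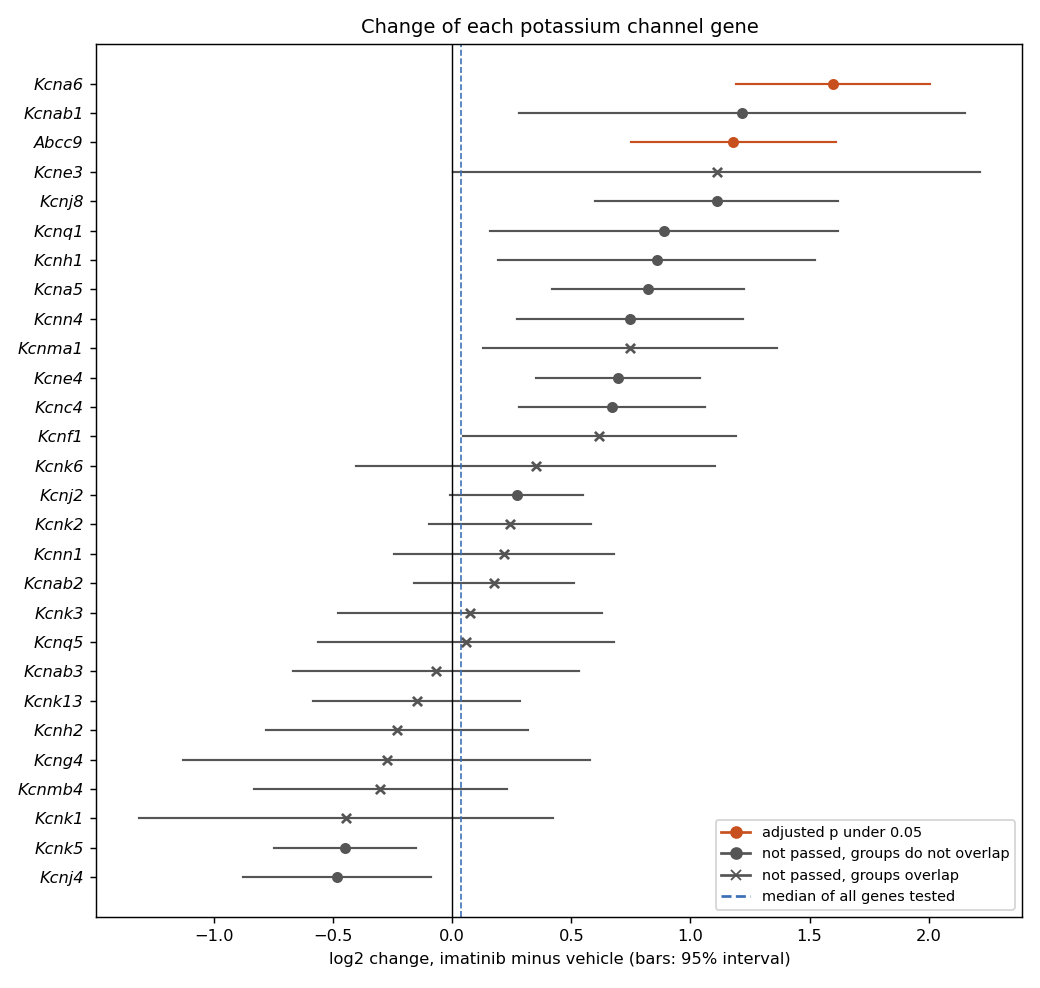
Log2 change, imatinib minus vehicle, of 28 of the 30 genes (points) with its 95% interval (bars). Kcna6 and Abcc9 passed an adjusted p of 0.05, circles mark genes whose groups did not overlap, crosses mark those that did, and the dashed line is the median of all genes tested. Kcna5, Kcnc4 and Kcnj2, above background on no vehicle array, are drawn at fitted changes, and only bounds on the difference of means are given for them.

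Most members had a single kept probe (21 of 30). The other 9 had 1 further kept probe each, and the sign of its change matched that of the tested probe for all 9. The smallest adjusted p over all 14713 genes was 0.0339, not far from the threshold of 0.05. No member passed when vehicle 1, vehicle 3, imatinib 1 or imatinib 3 was left out, and no gene of the whole table passed in those 4 fits either (limma, 8 to 12 members with an unadjusted p under 0.05). Across these fits the adjusted p of Kcna6 was 0.0942 to 0.167 and that of Abcc9 0.1 to 0.167. Without imatinib 2, Kcna6 passed (adjusted p = 0.0402, where 0.48% of all genes passed as higher) and Abcc9 did not (adjusted p = 0.063). Without vehicle 2, 8 of 29 tested members passed, all as higher, where 5.32% of all genes passed as higher. They were Kcna6, Abcc9, Kcnj8, Kcna5, Kcnc4, Kcnn4, Kcne3 and Kcnf1. Of these, Kcna5 and Kcnc4 were kept through the imatinib arrays alone, so a difference was built into how they were kept.

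The other genes of pacemaking and excitability were described from 6 lists. Of 96 genes 67 were tested, and none passed (limma, 23 with an unadjusted p under 0.05, beside 26.4% of all genes tested). The median log2 change was 0.16, beside 0.04 over all genes. A higher mean with imatinib was seen for 43 of the 67, and for 54.3% of all genes. The 43 and the median include Scn3a, Atp1b2 and Ryr3, kept through the imatinib arrays alone, so their direction was built in. Among voltage-gated calcium channels, 8 of 10 had higher means, and the beta subunits Cacnb2 and Cacnb4 changed by 0.80 ± 0.18 and 0.84 ± 0.21 (SE, adjusted p = 0.0728 and 0.0807). Of 6 sodium and pacemaker channels, Scn3a was above background on no vehicle array and on 3 imatinib arrays, at least 1.09-fold higher (adjusted p = 0.0841), and it was kept through the imatinib arrays alone. Of 10 chloride channels and transporters, the cotransporter Slc12a4 changed by -0.72 ± 0.26 (SE, adjusted p = 0.156). Of 15 genes of calcium stores and pumps, the release channels Ryr2 and Itpr3 changed by 1.13 ± 0.34 and 1.23 ± 0.41 (SE, adjusted p = 0.112 and 0.132). Of 12 TRP and purinergic channels, P2rx1 had a fitted change of -0.85 ± 0.18 and Trpc4 of 0.85 ± 0.22 (SE, adjusted p = 0.0613 and 0.0846). P2rx1 was detected on 1 imatinib array and Trpc4 on 2 vehicle arrays, and on all 3 arrays of the other group. Of 14 sodium pump and gap junction genes, Atp1b2 was likewise kept through the imatinib arrays alone, at least 1.37-fold higher (adjusted p = 0.0596). These values stand beside a family in which 2 of 30 passed, and the difference between the counts was not tested.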

How the data were processed

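Total RNA (200 ng) was labelled with biotin by the Illumina TotalPrep kit, per the labels' protocols, and hybridised to Illumina beadchips. For 45281 probes, the authors deposited a table of mean intensity, bead count, bead standard error and detection p-value, not normalized between arrays per the file headers. The deposited gene-level table holds log2 values without normalization, and a further table the authors' processed log2 values, which share a median. Partek is named in the submitters' processing notes, with no step. The scanner software and genome build are not given in the sources used here. Groups and replicate numbers came from the titles.

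The probe table names no genes, so probes were linked to gene-level rows by arithmetic: each of the 31492 rows equalled, on all 6 arrays, the log2 mean signal of exactly 1 run of neighbouring probes (tolerance 8e-06, or 6.2e-05 from a value of 10). Exchanging vehicle 1 with vehicle 2 and imatinib 1 with imatinib 2 at once gave 0 matches, and other exchanges were not tried. Symbols came from the platform annotation, updated through RefSeq (GRCm38.p6). Of the 85 member rows, 81 were matched through that annotation and 4 through their row name.

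The neqc function of limma corrected the background (normexp, offset 16), normalized by quantiles and took log2. Fold changes of weak probes are shrunk by that offset. Probes at a detection p under 0.05 on 3 or more arrays were kept, and each gene was represented by its brightest kept probe. Groups were compared with lmFit and eBayes (limma 3.58.1, R 4.3.3) without a block. The same fit was run on simulated data with independent noise, which does not test the choice against a block. The members, lists and tests were chosen with earlier results of these data known. Named members were Kcnj8, Abcc9, called members, up to 20 whose groups do not overlap, the 5 with the highest mean signal, and those detected on all arrays of 1 group and at most 1 of the other. Of other genes, those called, or the 2 with the smallest p of a list without a call, were named, in the marker lists only where the list stands beside a member. Some genes that these rules name are counted but not reported here by name. The search for a channel signature in proteins was not run, since no protein table was used. No column belonged to another series. Alternatives covered background correction, normalization, source table, detection filter, several probes, variance model, array weights, replicate block, each array left out and the threshold.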

Additional observations from a re-analysis of the deposited data

How the results depend on the processing

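Counts were recomputed under 21 alternatives and changes of single members under up to 20. The fit of array weights stopped before it converged, so its counts are uncertain. Of 572 changes of single members, 524 kept their direction and their side of the threshold, 24 passed it newly, 13 lost it and 11 turned. Most of the 24 came from array weights, the fit that did not converge, and from the fit without vehicle 2. The count of called members (2) went to 0 without a detection filter, 19 with array weights and 8 at an adjusted p of 0.10, with 0 to 8 when 1 array was left out. The count over all genes (232) became 350 without background correction, 484 with cyclic loess, 382 in the gene-level table, 385 in the authors' processed values, 409 with the mean of a gene's kept probes, 429 with a variance trend, 7589 with array weights, 1673 at 0.10, 0 without a filter and 0 to 1360 without 1 array. The count of 0 other excitability genes became 44 with array weights and 8 at 0.10, and was 0 to 11 without 1 array. The 4 called cell type markers became 44 with array weights, 20 at 0.10, 0 without a filter and 0 to 16 without 1 array. The cause was not tested.

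With the replicate block, 0 members, 0 genes of the table and 0 cell type markers passed (limma, 12 members with an unadjusted p under 0.05), and the adjusted p of Kcna6 and Abcc9 was 0.148. Deviations of same-numbered arrays correlated at -0.11, -0.31 and 0.02, and those of differently numbered arrays at -0.20 to 0.25. With 3 arrays a group, these values cannot tell whether the numbers pair the samples.

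Changes that turned were all among members not called. Kcnk3 was -0.047 with equal array medians, and Kcnmb4, Kcnn1 and Kcnq5 were 0.17, -0.036 and -0.030 with array weights. Leaving out 1 array gave -0.30 to 0.18 for Kcnab3, -0.32 to 0.0028 for Kcnk13, -0.083 to 0.30 for Kcnk3 and -0.22 to 0.25 for Kcnq5. At a stricter detection p of 0.01, 23 members were above background, and 21 were so on all 6 arrays at 0.05. Kcna5, Kcnc4 and Kcnj2 have only bounds, members detected on part of a group's arrays have uncertain changes, and 3 arrays a group limit all calls.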
